A study of Mus musculus with 8 samples.

Results

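Genes of the extracellular matrix, its proteases and the integrins that bind it were compared between female and male mouse hearts at 2 ages. The set held every gene on the array whose symbol begins with Col and a digit, Lama, Lamb, Lamc, Fbln, Fbn, Mmp, Timp, Thbs, Adamts, Itga, Itgb, Lox or Nid, or is one of a short list of single matrix genes. This gave 73 genes from 78 probe rows, out of 9607 rows in the table. They were 18 collagens, 10 laminins and nidogens, 9 glycoprotein, elastic fibre and crosslinking genes, 4 proteoglycans, 14 metalloproteases, the inhibitor Timp1, 14 integrins and 3 genes that share only the start of their names. Of the single matrix genes, Eln, Tnc, Lum, Dcn, Bgn and Vcan were matched. The animals were C57BL/6 mice, an inbred strain, aged 2 or 8 months, with no treatment or transgene named in the labels. Each sex at each age was 1 RNA pool from 6 hearts, and 4 dual-dye arrays set the female pool against the male pool of its age. Replicates 1 and 3 had the female pool in Cy3, and replicates 2 and 4 had it in Cy5. All values are log2 ratios of female over male, so a positive value means more signal in the female pool.

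The cardiac matrix is a network of fibrillar collagens and elastic fibres between the muscle cells, with basement membranes of laminin, nidogen and type IV collagen around muscle cells and vessels. Fibroblasts make most of the fibrillar part, metalloproteases cut it, Timp proteins block those proteases, and integrins tie cells to it. Matricellular proteins such as tenascin C and thrombospondins are low in resting heart and are known for their induction in injury and inflammation.

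Each age had 1 pool per sex, so the 4 arrays of an age are technical repeats, and no test across animals exists at 1 age. The SD given at 1 age is the spread of arrays. A gene met the size rule at an age when its mean over the dye orientations was at least 1.5-fold and all measured arrays had 1 sign. On replicates 1 and 2 at 8 months the ratios drifted along the feature number of the array, with an interquartile range of 1.14 and 1.52 against 0.29 to 0.44 on the other arrays, and these arrays correlated at -0.45 over all rows tested. Values from replicates 3 and 4 alone, which show little drift, are given beside them at 8 months. These arrays, of opposite dye orientation, correlated at -0.068 over all rows, so they did not repeat each other either. At 2 months the correlation over all rows was 0.78 and 0.86 between arrays with the female pool in the same dye, but 0.0097 to 0.26 between arrays with it in different dyes. The direction was checked with sex-linked genes: Xist was at 2.44 and 3.45 at 2 and 8 months, Kdm5d at -2.43 and -2.88, and Eif2s3y at -3.18 and -1.87. The table holds ratios and no intensities, so the level of heart markers could not be read. In pooled whole hearts, fewer cells of a type and less RNA per cell cannot be told apart.

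Over both ages together, no matrix gene differed between the sexes by the test. Of the 73 genes, 71 had enough measured arrays to be tested, and 0 of 71 were called by limma with an adjusted p below 0.05 (n = 2 pairs of pools; 0.0896% of all 7812 rows were called). At an unadjusted p below 0.05 there were 7 genes, which is 9.86% of the members beside 10.4% of all rows. The gene with the lowest p was Tnc, tenascin C, at 0.98 ± 0.16 (SE; limma adjusted p = 0.193). Mmp7, matrilysin, was at 0.95 ± 0.18 (limma adjusted p = 0.236). Lama5, a laminin alpha chain, was at -0.70 ± 0.17 (limma adjusted p = 0.316) and Adamts5, an aggrecanase, at -0.59 ± 0.15 (limma adjusted p = 0.336). Itga4, the alpha subunit of a leukocyte integrin that binds fibronectin, was at -0.54 ± 0.15 (limma adjusted p = 0.361). Without replicate 1 at 8 months, Mmp7 and Tnc were called (limma adjusted p = 0.00613 and 0.0167), in a fit that called 95 rows in all. Without replicate 4 at 8 months, Lama5 was called (limma adjusted p = 0.0298) among 104 rows, and Mmp7 and Tnc could not be tested. With 1 residual degree of freedom these p-values rest on the variance that limma pools over rows.

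At 2 months, matrix genes were on balance lower in the female heart pool. Of the 71 tested genes, 50 were negative, which is 70.4% beside 53.6% of all rows, and their median was -0.12 beside -0.016 for all rows. One sign on all measured arrays was found for 31 members beside 35.8% of all rows, negative for 20 of them (28.2% beside 18.1%) and positive for 11 (15.5% beside 17.7%). The shift was small, and 4 genes met the size rule. Col6a1, Eln and Loxl1 were lower in the female pool, that is 4.23% of the members beside 1.77% of all rows. Tnc was higher, that is 1.41% beside 2.41%.

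Col6a1, a chain of the microfibrillar type VI collagen that links cells to the interstitial matrix, was at -0.47, -1.28, -0.53 and -1.48 on replicates 1 to 4. Its mean was -0.94 ± 0.52 (SD, n = 4 arrays), or 1.92-fold lower in the female pool. All arrays were negative, and the pair with the female pool in Cy5 lay below the pair with it in Cy3.

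Eln, elastin, the core of the elastic fibre, was at -0.49, -1.03, -0.33 and -1.18. Its mean was -0.76 ± 0.41 (SD, n = 4 arrays), 1.69-fold lower, with the same split by dye. Loxl1, an enzyme that crosslinks elastin, was at -0.53, -0.55, -0.66 and -0.61. Its mean was -0.59 ± 0.060 (SD, n = 4 arrays), 1.5-fold lower, which is at the edge of the size rule, and it showed no split by dye. Elastin and its crosslinking enzyme were thus both lower in the female pool on every array of this age. The fibulins, which help to assemble elastic fibres, were not lower with them: Fbln2 was at -0.08, Fbln5 at 0.10 and Fbln7 at 0.15.

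The matricellular genes were divided. Tnc was at 1.34, 1.01, 0.06 and 0.55, positive on each array, with a mean of 0.74 ± 0.55 (SD, n = 4 arrays). Replicate 3 was close to 0. The thrombospondins were all negative: Thbs1 at -0.26 ± 0.21, Thbs2 at -0.37 ± 0.44 and Thbs4 at -0.49 ± 0.39 (SD, n = 4 arrays). Thbs2 and Thbs4 took their low values mainly from the arrays with the female pool in Cy5.

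Of the 18 collagens, 14 were negative at 2 months, with a median of -0.097 and a range of -0.94 to 0.25. The fibrillar collagens were lower by small amounts. Col1a1, the main chain of type I collagen, was at -0.30, -0.38, -0.27 and -0.23, with a mean of -0.30 ± 0.063 (SD, n = 4 arrays). All 4 arrays were negative and close together. Its partner chain Col1a2 was at -0.16 ± 0.18 and Col5a2, which controls fibril width, at -0.16 ± 0.24, with its 2 probes at 0.16 and -0.49. The basement membrane chains Col4a1 and Col4a2 were at -0.23 ± 0.059 and -0.19 ± 0.12, and Col4a5 at -0.09. Col9a1, a collagen known from cartilage, was the highest of the class at 0.25 ± 0.030 (SD, n = 4 arrays), and Col14a1 was at 0.10.

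Basement membrane glycoproteins were mostly below 0. Of 10 laminin and nidogen genes, 8 were negative, with a median of -0.10 and a range of -0.44 to 0.27. Lama5 was at 0.02, -0.59, -0.01 and -1.17, so that it was low on the arrays with the female pool in Cy5 and near 0 on the others. Lamc1, the gamma chain shared by most laminins, had the same form at -0.09, -0.70, 0.22 and -0.85. Lamb1 was at -0.21 and Lama4, a chain of vessel basement membranes, at -0.07. The proteoglycans, which sit on collagen fibrils or fill the space between them, were at -0.28 ± 0.12 for Bgn, -0.15 ± 0.12 for Dcn, -0.12 ± 0.29 for Lum and 0.12 ± 0.39 for Vcan (SD, n = 4 arrays).

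Among proteases, 9 of 12 tested genes were negative at 2 months, with a median of -0.17 and a range of -0.81 to 0.62. Adamts5 had the lowest mean, -0.81 ± 0.99 (SD, n = 4 arrays), from arrays at -0.16, -1.61, 0.22 and -1.70. The orientations did not overlap, and with the female pool in Cy3 the gene had no common sign. Mmp9, gelatinase B, a protease stored in neutrophils, was at -0.60, 0.09, -1.46 and 0.03, low on the opposite pair of arrays. Mmp14, a membrane-bound collagenase, was at -0.27 ± 0.097, and Mmp2, gelatinase A, at 0.06. Timp1 was at -0.41, 0.03, -0.32 and 0.07, with a mean of -0.16 ± 0.24 (SD, n = 4 arrays).

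**Figure D1:**
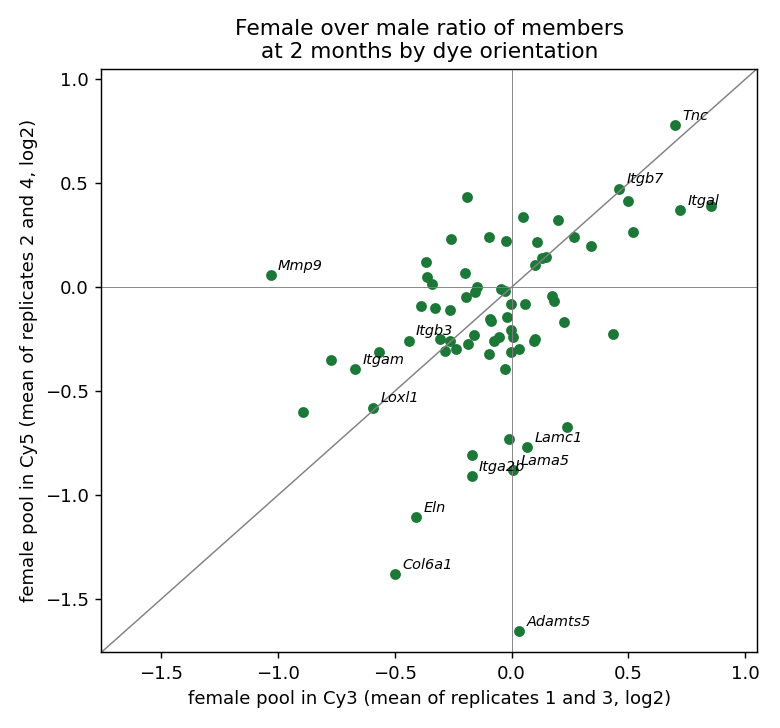
Female over male ratio (log2) of the 71 tested members at 2 months, with the mean of the arrays that carried the female pool in Cy3 on the horizontal axis and in Cy5 on the vertical axis; each point is a gene and the diagonal marks equal values. Loxl1 and Itgb7 lie near the diagonal, whereas Adamts5, Col6a1, Eln, Lama5 and Lamc1 lie below it and Mmp9 lies above it.

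At 2 months the dye orientations did not overlap and were lower with the female pool in Cy5 for 29 of 71 members, 40.8% beside 33.4% of all rows. They were higher in that orientation for 17, 23.9% beside 32.3%. A dye effect cancels in the mean of the orientations only if it has the same size in both, which was not tested. The median of the members was -0.047 with the female pool in Cy3 and -0.14 with it in Cy5.

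The 14 integrins ranged from -0.75 to 0.55 at 2 months, and those of leukocytes had no common sign. Itgal and Itgb7, subunits of lymphocyte integrins, were positive on each array of 2 months. Itgal was at 0.68, 0.52, 0.76 and 0.22, with a mean of 0.55 ± 0.24, and Itgb7 at 0.57, 0.56, 0.35 and 0.39, with a mean of 0.47 ± 0.11 (SD, n = 4 arrays). Itgb2, the beta chain that pairs with Itgal and Itgam, was at 0.26 ± 0.23. Itgam, the alpha chain of macrophages and neutrophils, was at -0.64, -0.48, -0.70 and -0.31, negative on all arrays with a mean of -0.53 ± 0.18 (SD, n = 4 arrays). Itgb3, a subunit of the vitronectin receptor that is also found on platelets, was at -0.35 ± 0.16, and Itga2b, its platelet partner, at -0.54 ± 0.44. Itga4, which pairs with Itgb7 on lymphocytes, was at -0.75 ± 0.78 on the 3 arrays that measured it. Itgae, another lymphocyte subunit, was at -0.01, 0.18, -0.18 and 0.30, and Itga10, a collagen receptor, at 0.39 ± 0.16. Itgb1, the beta chain of most matrix receptors of the heart, was at -0.21 ± 0.22. None of the 14 met the size rule, and 7 were negative. In the same pools, all 10 tested thymus and T cell markers were higher in the female pool by the size rule (2.41% of all rows), with a median of 3.03, and all 12 macrophage and neutrophil markers, Itgam among them, were negative, with a median of -0.39. Their part in the integrin values was not tested.

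At 8 months, more matrix genes were positive than negative, by a margin that depended on the arrays used, and the largest ratios belonged to an inhibitor, proteases and matricellular proteins rather than to collagens. Of the 71 tested genes, 43 were positive, 60.6% beside 45% of all rows, with a median of 0.095 beside -0.032 for all rows. The median was -0.018 without replicate 3 and -0.058 with the female pool in Cy3 only, so its direction was not stable. On replicates 3 and 4 alone, 45 of 70 were positive, 64.3% beside 49.6%, with a median of 0.14 beside -0.0015. Both of these arrays were positive for 37 of the 70, 52.9% beside 24.7%, and both negative for 13, 18.6% beside 23.6%. On all 4 arrays, 1 sign was found for 15 members (10.6% of all rows), positive for 11 (5.79% of all rows) and negative for 4 (4.85% of all rows). By the size rule 6 genes were higher in the female pool, 8.45% of the members beside 1.68% of all rows, and 1 was lower, 1.41% beside 1.31%. The higher genes were Timp1, Mmp7, Tnc, Thbs1, Lum and Mmp9, and the lower gene was Lama5. On replicates 3 and 4 alone, 9 of 70 were higher, 12.9% beside 2.02% of all rows, and 1 was lower, 1.43% beside 1.09%. All 6 higher genes were among the 9, with Fbln7 and the metalloprotease genes Adamts4 and Adamts12. The lower gene was Itga4, at -0.96.

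Timp1, a secreted inhibitor of metalloproteases that is also an acute phase protein, was at 2.29, 0.32, 1.84 and 2.44 on replicates 1 to 4. Its mean was 1.72 ± 0.97 (SD, n = 4 arrays), or 3.29-fold higher in the female pool, and 2.14 on replicates 3 and 4. All arrays were positive, and replicate 2 was well below the others. Replicates 1 and 2 both carry the drift, and its part in the low value was not tested. After the drift was removed the value was 1.83.

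Thbs1, thrombospondin, a matricellular protein of platelets and injured tissue that can activate latent TGF-beta, was at 0.75, 1.55, 0.95 and 0.96. Its mean was 1.05 ± 0.34 (SD, n = 4 arrays), 2.08-fold higher, and all arrays were above 0. Thbs2 was at 0.39 ± 0.52 and Thbs4 at 0.18 ± 0.98, neither with 1 sign. Tnc was at 1.94, 0.63 and 1.14 on replicates 1, 3 and 4, and replicate 2 had no value. Its mean was 1.21 ± 0.66 (SD, n = 3 arrays), 2.32-fold higher, and Tnc was the 1 gene that met the size rule at both ages in the same direction. That rests on single arrays: without replicate 1 of 2 months its value there was 0.42, short of the rule, and it was not tested without replicate 4 of 8 months. It also left the rule at 8 months when values of exactly 0 were kept as measured.

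Mmp7, a small protease of epithelia and macrophages, was at 0.76, 1.09 and 1.62 on replicates 1, 3 and 4, with no value on replicate 2. Its mean was 1.28 ± 0.43 (SD, n = 3 arrays), 2.42-fold higher. At 2 months it was at -0.05, 0.85 and 0.83 on replicates 2 to 4, so that 1 array stood at 0. Mmp9 was at 0.59, 0.58, 0.20 and 0.98, positive on all arrays. Its mean of 0.59 ± 0.32 (SD, n = 4 arrays) is 1.5-fold, at the edge of the size rule. Lum, lumican, a proteoglycan of collagen fibrils, was at 0.35, 0.97, 0.40 and 0.98, with a mean of 0.67 ± 0.35 (SD, n = 4 arrays), 1.60-fold higher.

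Lama5, a laminin chain of vessel and epithelial basement membranes, was at -0.52, -2.23, -0.32 and -0.81, negative on all arrays. Its mean was -0.97 ± 0.86 (SD, n = 4 arrays), 1.96-fold lower in the female pool. Replicate 2 stood far below the others. The pair of arrays with the female pool in Cy5 lay below the pair with it in Cy3, as at 2 months. On replicates 3 and 4 the value was -0.56, short of 1.5-fold. Basement membrane genes were mostly below 0 at 8 months on the mean of the arrays. Of 10 laminin and nidogen genes, 9 were negative, with a median of -0.17. On replicates 3 and 4, 9 of 10 were also negative, with a median of -0.16. The class median was -0.49, 0.39, 0.020 and -0.30 on replicates 1 to 4, so its direction differed between arrays. Lama4 was at -0.64 ± 0.68 but at -0.13 on replicates 3 and 4, and Lamb1 was at -0.29. Of the type IV collagens, Col4a1 was at -0.46 ± 0.78 and Col4a2 at -0.23 ± 0.21, or -0.23 and -0.19 on replicates 3 and 4.

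The other classes held no gene that met the size rule in this direction. Of the 18 collagens, 12 were positive, with a median of 0.083 and a range of -0.46 to 0.50. Col1a1 was at -0.36, 0.83, 0.48 and 0.14, without 1 sign, and at 0.31 on replicates 3 and 4. Col1a2 was at -0.01, Col5a2 at 0.12, Col6a1 at -0.06 and Col4a5 at 0.05. Col14a1, a collagen that decorates fibrils, was at 0.48 ± 0.65 and at 0.56 on replicates 3 and 4. Col9a1 was at 0.42 ± 0.87 (SD, n = 3 arrays). All 9 glycoprotein, elastic fibre and crosslinking genes were positive, with a median of 0.39 and a range of 0.074 to 1.21, and all 9 were positive on replicates 3 and 4, with a median of 0.19. Fbln7 was at 0.55 ± 0.28, positive on all arrays. Of the 12 tested proteases 9 were positive, with a median of 0.15 and Adamts5 the lowest at -0.38. Mmp2 was at 0.27 and Mmp11 at -0.28. Of the proteoglycans, Bgn was at 0.11, Dcn at -0.30 and Vcan at -0.29, or 0.29, -0.08 and 0.26 on replicates 3 and 4. Integrins ranged from -0.34 to 0.51 with a median of 0.033, and Itgal and Itgb7 were at 0.02 and 0.04.

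**Figure D2:**
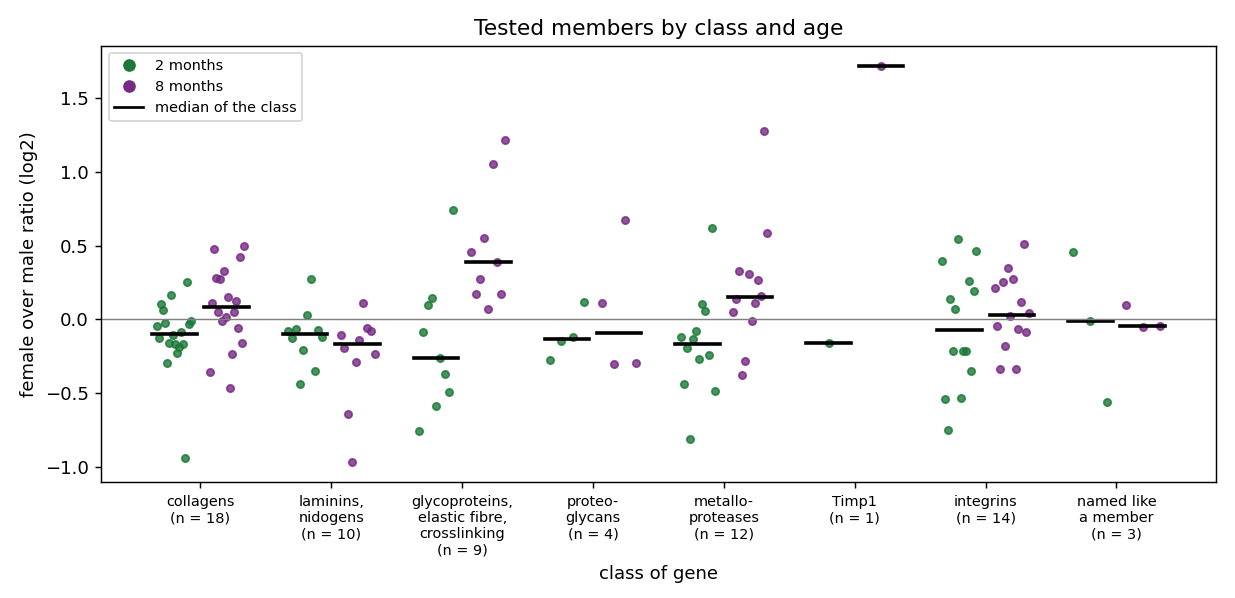
Female over male ratio (log2) of the 71 tested members by class at 2 months (green) and 8 months (purple); each point is a gene and each bar the median of its class. The glycoprotein, elastic fibre and crosslinking genes move from a median of -0.26 to 0.39. The medians of laminins and nidogens and of proteoglycans are below 0 at both ages. On replicates 3 and 4 alone, not drawn here, the 8-month medians of these 2 classes were -0.16 and 0.27, so the proteoglycan sign depended on the arrays used.

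Promoter windows on the mouse assembly GRCm38.p6 are shown for genes of the size rule, because these are the genes whose ratios the results turn on. Windows were at hand for 5 of the 11, and none was at hand for Thbs1, Mmp9, Lum, Eln, Loxl1 and Itgb3. Mmp7 and Tnc had 2 windows each, of which 1 is shown. Each line gives the 250 bases before the most upstream start of the gene, 5′ to 3′ on the strand of the gene. Capitals mark matches of the AP-1 motif TGANTCA or of the TATA box motif TATAAA, searched on both strands. AP-1 is a stress-responsive transcription factor known for its action on metalloprotease genes.
Timp1, chrX:20869916-20870165, plus strand: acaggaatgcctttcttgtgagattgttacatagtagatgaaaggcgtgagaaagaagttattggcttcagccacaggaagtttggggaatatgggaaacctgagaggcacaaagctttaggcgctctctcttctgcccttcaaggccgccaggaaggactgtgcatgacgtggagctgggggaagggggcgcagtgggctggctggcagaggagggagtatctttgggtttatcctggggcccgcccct
Mmp7, chr9:7691840-7692089, plus strand: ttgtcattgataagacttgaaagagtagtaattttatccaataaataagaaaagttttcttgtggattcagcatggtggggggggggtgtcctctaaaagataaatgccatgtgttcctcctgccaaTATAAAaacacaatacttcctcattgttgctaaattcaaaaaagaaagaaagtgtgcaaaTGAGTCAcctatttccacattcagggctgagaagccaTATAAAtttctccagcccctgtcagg
Tnc, chr4:64047016-64047265, minus strand: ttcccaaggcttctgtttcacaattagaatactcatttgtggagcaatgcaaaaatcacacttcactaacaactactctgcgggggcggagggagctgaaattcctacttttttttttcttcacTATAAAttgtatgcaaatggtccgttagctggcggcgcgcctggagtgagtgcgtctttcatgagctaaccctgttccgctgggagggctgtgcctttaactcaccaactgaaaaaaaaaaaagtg
Lama5, chr2:180225860-180226109, minus strand: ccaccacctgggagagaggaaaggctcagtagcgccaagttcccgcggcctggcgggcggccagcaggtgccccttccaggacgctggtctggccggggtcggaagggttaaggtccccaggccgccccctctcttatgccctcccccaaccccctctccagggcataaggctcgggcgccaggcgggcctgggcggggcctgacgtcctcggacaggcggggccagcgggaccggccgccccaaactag
Col6a1, chr10:76726045-76726294, minus strand: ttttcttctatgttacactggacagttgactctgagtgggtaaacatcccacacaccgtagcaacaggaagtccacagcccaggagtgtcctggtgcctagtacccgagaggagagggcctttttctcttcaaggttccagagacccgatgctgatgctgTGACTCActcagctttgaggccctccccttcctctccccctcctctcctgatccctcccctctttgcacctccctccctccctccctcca

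The Mmp7 window held 1 match of the AP-1 motif and 2 of the TATA motif, the Col6a1 window 1 of the AP-1 motif, and the Tnc window 1 of the TATA motif. The windows of Timp1, which lies on the X chromosome, and of Lama5 held none. Of all 32851 windows of this length, 6.75% held the AP-1 motif and 12.4% the TATA motif. The matches describe letters in these windows only.

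The ratios of the ages were then set side by side; the pools of the ages share no sample. Of the 71 genes, 25 were negative at 2 months and positive at 8 months, 35.2% beside 20.6% of all rows, and 3 went the other way, 4.23% beside 22% of all rows. The other 43 kept 1 sign, 60.6% beside 57.4% of all rows. With the 8-month value from replicates 3 and 4, 27 of 70 went from negative to positive, 38.6% beside 22.9%, and 3 the other way, 4.29% beside 19.7%. All 8-month arrays lay above all 2-month arrays for 8 members, 11.3% beside 3.03% of all rows, and below them for 0, beside 2.89%. For 7 genes the 8-month ratio was at least 1.5-fold above the 2-month ratio and the arrays did not overlap, 9.86% of the members beside 1.57% of all rows. No member differed by this rule in the other direction, where 1.72% of all rows did. No test of the difference across animals exists. The count of 7 became 14 without replicate 1 and 11 without replicate 2 of 8 months, and Loxl1 left it without replicate 2 or 3. In the other direction the count became 2 without replicate 2 and 1 without replicate 3.

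The 7 genes were Timp1, Thbs1, Eln, Mmp9, Itgb3, Lum and Loxl1. The differences of 8 minus 2 months were 1.88 for Timp1, 1.32 for Thbs1, 1.22 for Eln, 1.07 for Mmp9, 0.86 for Itgb3, 0.80 for Lum and 0.66 for Loxl1. With the 8-month value from replicates 3 and 4 they were 2.29, 1.22, 0.95, 1.08, 0.60, 0.81 and 0.72 in the same order. Eln at 8 months was at 0.25, 1.20, 0.59 and -0.21, so its ratio had no common sign there, and Loxl1 was at -0.49, 0.51, 0.17 and 0.11. For both elastic fibre genes the difference between the ages thus came from low values at 2 months more than from high values at 8 months. Itgb3 at 8 months was at 0.78, 0.76, 0.31 and 0.20, all positive, against 4 negative arrays at 2 months.

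**Figure D3:**
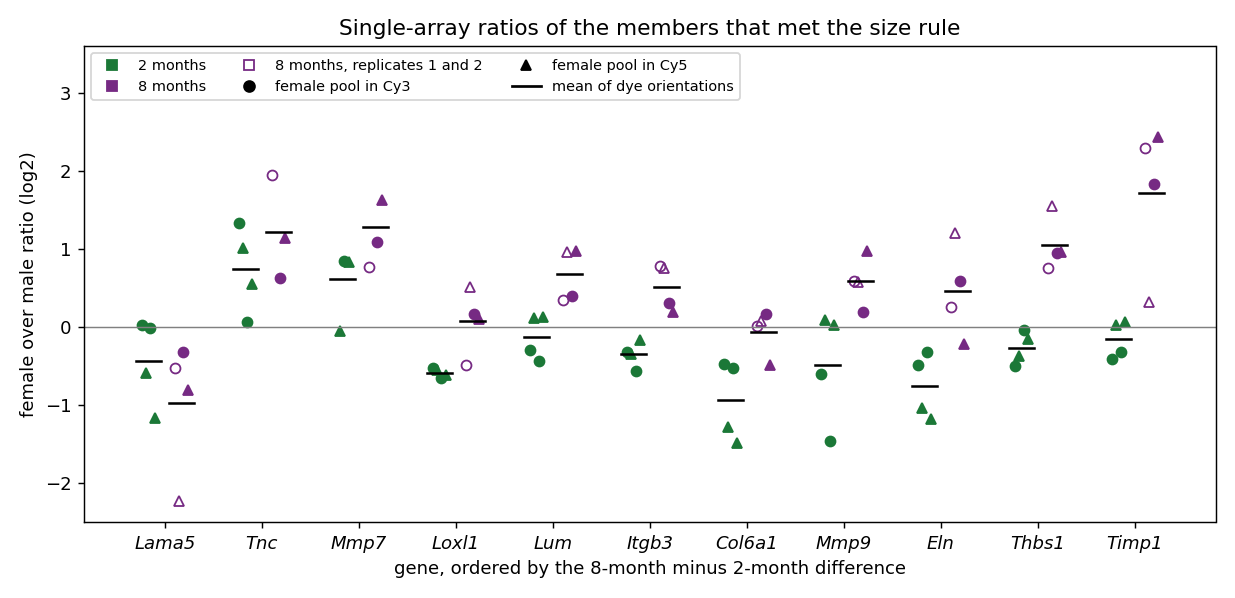
Female over male ratio (log2) on each array for the 11 members that met the size rule at 2 months, at 8 months or for the difference; circles are arrays with the female pool in Cy3 and triangles in Cy5, open symbols are replicates 1 and 2 at 8 months, and bars are means of the dye orientations. Timp1 and Thbs1 show the largest gaps between the ages, with all 8-month arrays above all 2-month arrays.

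**Figure D4:**
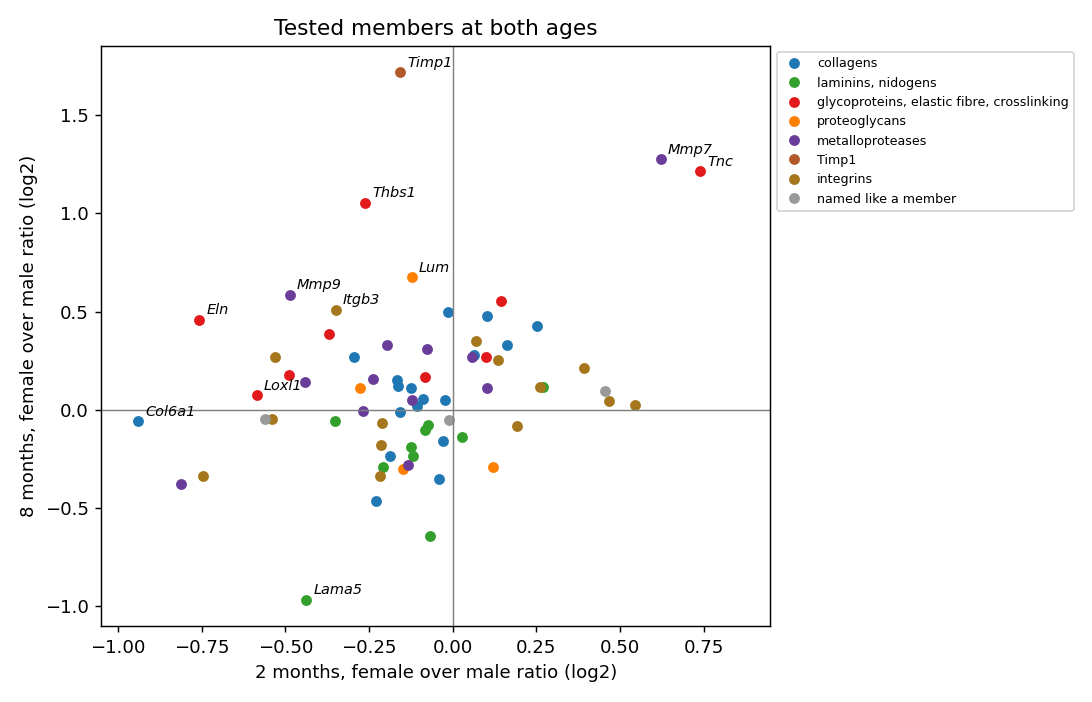
Female over male ratio (log2) of the 71 tested members at 2 months (horizontal) and 8 months (vertical), coloured by class, with the genes of the size rule named. The upper left quadrant, negative at 2 and positive at 8 months, holds 25 genes, and the lower right quadrant holds 3.

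Genes that build, modify or sense the matrix, outside the set, were examined as 7 further lists, and none of their genes was called by limma over both ages (0.0896% of all rows were). By the size rule, 2.41% of all rows were higher and 1.77% lower at 2 months, 1.68% higher and 1.31% lower at 8 months, and 1.57% higher for the difference, and single genes in lists of this length are read beside these shares. Of 12 tested collagen processing and crosslinking genes, 0 met the size rule at either age, with medians of -0.22 and -0.19 at 2 and 8 months. The 8-month median was 0.016 on replicates 3 and 4, so its sign depended on the arrays used. The transglutaminase Tgm2 was at -1.02 over both ages, Mia3, which helps to export procollagen, at -0.34 and Pcolce, an enhancer of procollagen cleavage, at -0.30. Tgm2 followed the dye: at 2 months it was at -0.45, -2.67, 0.33 and -2.38, and at 8 months at 1.03, -2.67, 1.00 and -2.33. Of 19 TGF-beta and BMP signalling genes 0 met the size rule, with medians of -0.067 and -0.11, the latter -0.023 on replicates 3 and 4. The receptors Tgfbr2 and Bmpr2 were at -0.56 and -0.39 over both ages and Ltbp1, which stores latent TGF-beta in the matrix, at -0.40. Tgfbr2 also followed the dye. It was at -0.07, -1.14, 0.52 and -1.36 at 2 months, and at 0.27, -1.28, 0.40 and -1.79 at 8 months. Bmpr2 and Ltbp1 were at -0.02 and -0.12 at 2 months, and at -0.07 and 0.03 on replicates 3 and 4 of 8 months. Their values over both ages thus came mainly from the drifting 8-month arrays, with replicate 1 the lowest for both genes.

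Of 7 plasminogen system genes 0 met the size rule, with medians of -0.13 and -0.096, the latter 0.040 on replicates 3 and 4. Plau, the urokinase activator, was at -0.32 over both ages, and the inhibitors Serpinb2 and Serpinf1 at 0.30 and -0.30. Of 20 other matrix glycoproteins and proteoglycans, 1 was lower at each age by the size rule and none higher, with medians of -0.075 and -0.077. The 8-month median was 0.12 on replicates 3 and 4. Ccn5, a matricellular protein, was at -0.77 ± 0.26 at 2 months and 0.31 ± 0.32 at 8 months, a gap that also met the rule for the difference. Matn2, a filament-forming matrilin, was at -0.43 ± 0.15 and -0.73 ± 0.45, and was negative on all 8 arrays. Mgp, an inhibitor of calcification, and Vtn, vitronectin, were at 0.43 and -0.34 over both ages.

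Of 9 syndecan, glypican and hyaluronan genes, 1 was higher at 8 months by the size rule (1.68% of all rows) and 2 for the difference (1.57% of all rows), with medians of -0.018 and 0.30. The 8-month median was 0.12 on replicates 3 and 4. Cd44, the hyaluronan receptor, was at -0.09 ± 0.084 at 2 months and at 0.44, 1.26, 0.13 and 0.56 at 8 months. It met both rules, but on replicates 3 and 4 it was at 0.35, short of 1.5-fold. Gpc4, the other gene of the difference, was at -0.30 and 0.40 at 2 and 8 months, and at 0.085 on replicates 3 and 4. On those arrays 1 gene of the list was higher by the size rule (2.02% of all rows), Sdc1 at 0.62. Hyal2 and Srgn were at 0.33 and 0.21 over both ages. Of 11 other matrix proteases and inhibitors, 1 was higher and 1 lower at 2 months and none at 8 months, with medians of -0.053 and -0.14. The 8-month median was 0.014 on replicates 3 and 4. At 2 months Adam12 was at 0.82 ± 0.47 and Adam15 at -0.75 ± 0.43, both membrane-anchored relatives of the Adamts proteases, and the cathepsin gene Ctsl was at 0.54 ± 0.11. Ctss, a cathepsin of macrophages, was at -0.40 ± 0.12 at 2 months and 0.57 ± 0.39 at 8 months and met the rule for the difference. Of 14 focal adhesion and integrin linkage genes 0 met the size rule, with medians of -0.060 and -0.20, the latter -0.088 on replicates 3 and 4. Parvb, Sgcb and Dag1, which join integrins or dystroglycan to the cytoskeleton, were at -0.42, -0.24 and -0.23 over both ages.

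Markers of the cell types that make or infiltrate matrix moved as follows, and their part in the matrix values was not tested. Macrophage and neutrophil markers had a median of -0.39 at 2 months, with 0 of 12 positive, and 0.29 at 8 months, with 10 of 12 positive. On replicates 3 and 4 the median was 0.28, with 11 of 12 positive. Their genes ranged from -0.80 to -0.23 at 2 months and from -0.47 to 0.57 at 8 months. The medians had 1 sign on all 4 arrays of each age, whereas the median of the matrix members was -0.14 on replicate 1 at 8 months and positive on the others. Fibroblast markers had 1 of 8 positive at 2 months, with a median of -0.23, and 2 of 8 positive at 8 months, with a median of -0.060. Their 8-month median was -0.13 on replicates 3 and 4. Pdgfra and Tcf21, which define cardiac fibroblasts, were at -0.14 and -0.21 at 2 months and at -0.05 and 0.07 at 8 months. Pdgfrb, at -0.62 and -0.33 at 2 and 8 months, was lower at 2 months by the size rule (1.77% of all rows). S100a4, at -0.43 and 0.55, met the rule for the difference (1.57% of all rows). Endothelial markers had medians of -0.32 and -0.40, smooth muscle and pericyte markers -0.13 and -0.085, and cardiomyocyte markers -0.080 and -0.25. The 8-month medians of these lists on replicates 3 and 4 were -0.36, -0.26 and -0.12 in the same order. Thymus and T cell markers were at 3.03 and 0.19, fat markers at 1.79 and 0.26, and lung and airway markers at 0.87 and 0.37, with 3 of 4 positive at each age. Among the fat markers, Ucp1 was at 2.99 and 0.34 at 2 and 8 months, and Fasn at 1.88 and -0.35. Of the lung markers, Sftpc was at 1.76 and 3.12, Sftpd at 1.07 and 0.37, Scgb1a1 at 0.66 and -0.055, and Ager at -0.036 and 0.37.

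**Figure D5:**
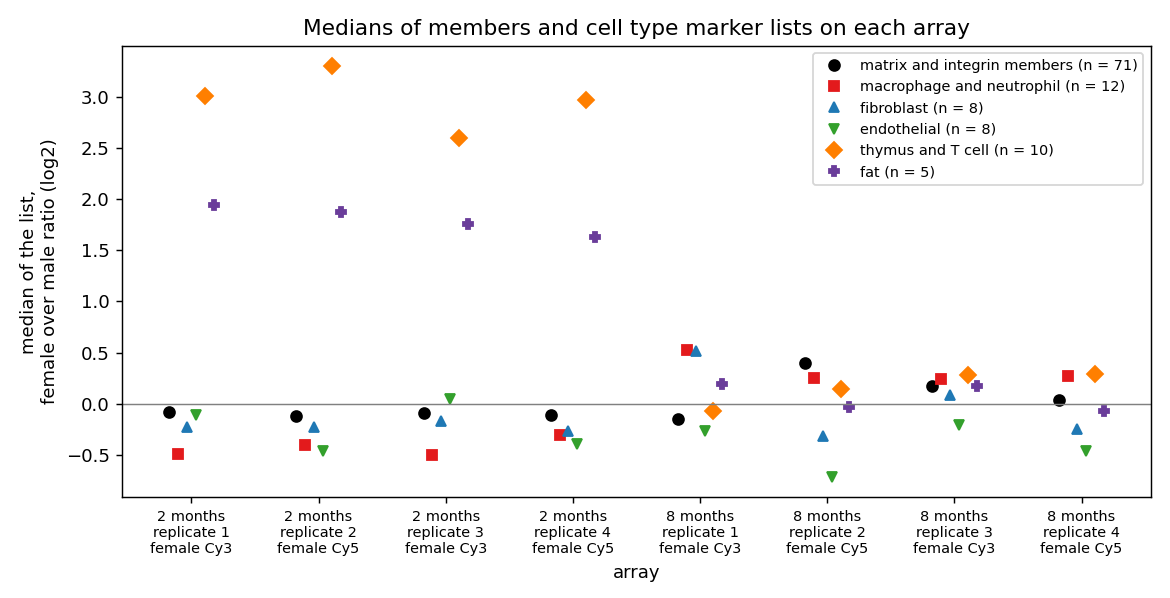
Median female over male ratio (log2) on each of the 8 arrays for the 71 tested members and for 5 cell type marker lists; the dye of the female pool stands under each array. Macrophage and neutrophil markers are negative on all 2-month arrays and positive on all 8-month arrays, and thymus and fat markers are high on the 2-month arrays.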

How the data were processed

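Hearts of female and male C57BL/6 mice were compared on 8 dual-dye cDNA arrays, 4 at each age. The deposited table holds log10 ratios of Cy5 over Cy3, which the authors made in Feature Extraction 7.1.1 according to the labels. No source used here names a further normalization step. Values are limited at 2 and -2, and 6.38 to 13.9% per array are exactly 0 and were treated as not measured. Depth does not apply to arrays; their number limits the precision, and no intensities were used.

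Ratios were put on the log2 scale with the female pool as numerator. Of 9607 rows, 6671 had 1 symbol in the platform annotation (6600 updated through RefSeq's GRCm38.p6 table by gene ID, 71 kept), 400 had several and 2536 none. Rows of 1 symbol were averaged; 5 members had more than 1 probe. Of the rows with several symbols, 4 include a name of the set and were not used. A row was tested with at least 3 measured arrays at each age and both dye orientations (7812 rows). Each age was given by averaging its dye orientations. The sexes were compared over both ages with limma 3.58.1 in R 4.3.3 (lmFit, eBayes, two-sided, Benjamini-Hochberg over all rows) on the 2 age means. On simulated data with 7812 rows the fit called 89 of the 100 rows given a 2-fold change, 99 of the 100 given a 4-fold change and 18 of 7612 left without one. The simulated errors were drawn from the variance that limma fitted to these data. The simulation thus does not show which changes between the real pools would be called. Tnc and Mmp7, at 0.98 and 0.95 over both ages, were not.

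Genes named with values were the members of the size rule, up to 4 per class with the largest value over both ages, Timp genes, fibrillar, type IV and type VI collagens, and up to 3 genes per further list. Other genes were named after their values were seen. Members and lists were chosen with earlier results of these data known. Alternatives changed centring, scale, drift, zeros, filters, probes, fold and arrays.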

Additional observations from a re-analysis of the deposited data

Results flagged for a closer look

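Bgn at 8 months had 1 array far from the others: replicate 2 was at -0.56, while the other 3 arrays were at 0.29 to 0.42. Itga4 at 8 months was at 1.32 on replicate 2 and at -1.13 to -0.74 on the others. Both values lie on an array that drifts along the feature number. In all, 61 groups of 4 arrays were examined in this way, and chance alone marks about 1 in 20 of them.

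For Thbs1 and Itgb3, every array of 2 months was negative and every array of 8 months positive. The difference of the ages was 1.32 for Thbs1 and 0.86 for Itgb3, and it was not tested.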

How the results depend on the processing

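No member was called over both ages by limma under any of the alternatives on centring, scale, drift, zeros, filters, probes or replicates 3 and 4, and 0 to 2 were called when 1 array was left out. With 1 array left out, 0 to 2 members were higher and 3 to 5 lower at 2 months by the size rule, 5 to 9 higher and 1 to 2 lower at 8 months, and 6 to 14 higher and 0 to 2 lower for the age difference. The median of the members ranged from -0.123 to -0.115 at 2 months and from -0.018, without replicate 3, to 0.18 at 8 months. With arrays scaled to 1 interquartile range, 0 members were lower at 8 months. With the drift removed, 1 was lower for the age difference, Itgal. Asking for all 4 arrays left 0 higher at 2 months, since Tnc was then not tested. With no filter, 2 were lower at 8 months and 1 for the difference, where Mmp16 then entered as lower on 1 array; Mmp27 entered as higher. With the 8-month value from replicates 3 and 4, 15 were higher for the difference, where fewer arrays had to separate. At 1.3-fold, 5 were higher and 7 lower at 2 months. At 2-fold, 0 were higher and 0 lower at 2 months, 0 were lower at 8 months and 4 were higher for the difference. The median at 2 months was -0.047 with the female pool in Cy3 only and -0.14 in Cy5 only; at 8 months it was -0.058 in Cy3 only, which includes replicate 1. The cause of these changes was not tested beyond what each setting itself fixes. Values of the named members moved by less than 1 SD of their arrays in all 1034 recomputations, and none that met the size rule changed sign. Where arrays were dropped, both outcomes were fixed in advance. Such a shift stays below 1 SD by arithmetic, and a gene of the size rule has 1 sign on its measured arrays. Other settings left many values unchanged, so the count does not measure stability. Loxl1 at 2 months fell short of the size rule when arrays were centred, when the drift was removed, and without replicate 3 or 4 of 2 months. Tnc fell short at 2 months without replicate 1. Mmp7 and Tnc left the rule at 8 months with exact zeros kept as measured, and were not tested when all 4 arrays were asked for or without replicate 4 of 8 months; Mmp7 was also not tested without replicate 3 of 2 months. Lum, Mmp9 and Lama5 fell short at 8 months when arrays were scaled, and Lama5 on replicates 3 and 4. Mmp9 fell short without replicate 1 or 4 of 8 months. For the difference, Lum was lost with scaled arrays. Without replicate 1 or 2 of 2 months, 5 members were lower at that age, and without replicate 2 or 4 of 2 months 2 were higher. Without replicate 2 or 3 of 8 months, 2 were lower at 8 months. No paired analysis was possible because the arrays of an age repeat 1 pair of RNA pools and no test across pools exists for the difference of the ages. Signal over background is unknown.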

Other observations

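Some genes match the set by name alone and are neither proteases nor integrins. Itgbl1, an integrin beta-like secreted protein, was at -0.66, -0.43, -0.89 and -0.27 at 2 months, a mean of -0.56 ± 0.27 (SD, n = 4 arrays), and at -0.05 at 8 months. Adamtsl2, a relative of the Adamts proteases that lacks their catalytic domain and binds fibrillin and latent TGF-beta complexes, was at 0.36, 0.41, 0.63 and 0.42 at 2 months, positive on all arrays, and at 0.09 at 8 months. Itgb1bp2, melusin, a muscle protein that binds the integrin tail, was at -0.01 and -0.05.

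Probes of 1 gene differed in sign for Col5a2 at both ages (0.16 and -0.49 at 2 months, -0.17 and 0.42 at 8 months) and for Col12a1 at 2 months (-0.70 and 0.31). They also differed for Col18a1 at 2 months (0.0041 and -0.051) and at 8 months (0.43 and -0.33). Both Col18a1 probes were positive on replicates 3 and 4 (0.31 and 0.091). The Col23a1 probes differed on replicates 3 and 4 (-0.28 and 0.043). The Col12a1 probe at -0.70 had no 8-month mean over both dye orientations, and the other was at 0.27 there. With its probes averaged, Col12a1 was at -0.12 and 0.11 at 2 and 8 months. Both probes of Col14a1 were positive at 8 months, at 0.41 and 0.55. Mmp16 and Mmp27 were not tested: each had 1 measured array at 8 months.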
